A study of Arabidopsis thaliana with 12 samples.

Results

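Transcript levels in shoots of sob3-6, a line that carries a dominant-negative form of the AT-hook protein SOB3, were compared with those of the wild type Col-0. The comparison rested on 3 RNA-seq libraries of each genotype, 6 of the 12 libraries of the series, picked by the genotype in their labels. Every plant was of the Columbia (Col-0) ecotype, was 14 days old and had grown at 22 °C in days of 16 h of light and 8 h of darkness, on sucrose-free medium, with light of 35 to 55 µmol per second and square metre. Shoots were cut off at the hypocotyl at ZT4, 4 h after lights on. The other libraries, 3 each of the overexpressor SOB3-D and of the triple mutant pif4 pif5 pif7, added to the estimate of spread and appear below only where their values are set beside those of sob3-6. As a model the line has limits: as background, sob3-6 arose as a missense change of an AT-hook within the activation-tagged SOB3-D allele, so it still overexpresses the altered gene, and it differs from Col-0 in both the amount and the kind of SOB3 product.

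AHL proteins bind AT-rich DNA in the minor groove through AT-hooks and associate with each other through a second conserved domain. In Arabidopsis seedlings SOB3 and its relatives restrain elongation of the hypocotyl and petiole, and a copy that cannot bind DNA but still joins complexes can disable the whole family. Plants of the sob3-6 line are known for long hypocotyls and petioles, the opposite of the compact SOB3-D plants.

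A level is given throughout as reads of 1 transcript per 1000000 mapped reads (ppm), as deposited. Each gene was read through its transcript with the highest mean over the 12 libraries. The files held 25089 genes by this rule, and 18502 of them, which reached 1 ppm in 3 or more of the 12 libraries, were tested. Values are listed in the order of replicates 1, 2 and 3. A change is a difference in log2(ppm + 1), sob3-6 minus Col-0, which understates changes of genes near 1 ppm. A gene was called at a limma adjusted p under 0.05. Levels were also rescaled by median-of-ratios factors, and a gene is said below to have risen or fallen where it was called in the same direction on both scales. The call of a single gene is said to be lost where its limma adjusted p as deposited was no longer under 0.05. Calls on both scales can be lost more often. The labels do not say that replicates came from separate cultures, so the spread that these p-values rest on is one between libraries and may be technical.

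The Col-0 libraries held 14488308 to 16075498 reads and those of sob3-6 10179924 to 12567173, so that 3 reads, the most that a count of 0 allows, stood for 0.187 to 0.295 ppm. These floors reflect only the error of counting. Replicates of a genotype correlated at r = 0.995 to 0.996 across transcripts, although transcripts are not independent, and differed by more than sampling noise. Of the 6 root markers, the summed level was 321 to 403 ppm in Col-0 and 107 to 116 ppm in sob3-6. PYK10 made up most of that sum, IRT1 was at 0 in all 6 libraries, COBL9 was below the filter, and FRO2 and PHT1;4 were at 4.27 ppm or less as means and were not called. SCR, an endodermis and leaf bundle sheath regulator, was at 49.8, 46.5 and 46.5 ppm in Col-0 and 40.7, 43.9 and 40.3 ppm in sob3-6 and fell (log2 change -0.19, SE 0.06, limma adjusted p = 0.035), a call lost without any single library other than sob3-6 replicate 2 (limma adjusted p up to 0.153). The 4 flower markers summed to 1.18 ppm at most. Guard cell markers summed to 85.0 to 93.4 ppm in Col-0 and 94.8 to 99.8 ppm in sob3-6, vascular markers to 200.1 to 216 and 213 to 242 ppm, epidermal markers to 511 to 521 and 518 to 537 ppm, and mesophyll markers to 34903 to 35868 and 32807 to 33620 ppm.

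Across the 18502 tested genes the shoots of the 2 genotypes differed in many genes and mostly by little. As deposited, 1745 genes (9.43%) were higher in sob3-6 and 730 (3.95%) lower. After median-of-ratios scaling 809 (4.37%) were higher and 1253 (6.77%) lower, and the share of higher genes among the calls went from 70.5% to 39.2%. The median log2 change of all tested genes was 0.06 as deposited and 0.00 after scaling. The genes called in the same direction on both scales numbered 809 higher (4.37%) and 730 lower (3.95%). The 936 genes called higher only as deposited had a median change of 0.24, and the 523 called lower only after scaling had a median of -0.20, with extremes of 0.77 and -0.63.

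The genes that rose and those that fell differed in where they sat in the range of levels. The 809 that rose had a median Col-0 level of 24.2 ppm and none was above 1000 ppm in Col-0. The 730 that fell had a median Col-0 level of 49.1 ppm and 25 were above 1000 ppm, of 101 such genes tested. All tested genes had a median of 16.6 ppm. The change was under 1.5-fold on the log2(ppm + 1) scale for 82.6% of the genes that rose and 82.5% of those that fell. A change of at least 2 on the log2 scale was seen for 6 that rose and 5 that fell, a change of 1 to 2 for 18 and 43, and one of 0.5 to 1 for 207 and 135. In 807 of the 809 genes that rose, and 706 of the 730 that fell, the libraries of the genotypes did not overlap, against 24.4% of all tested genes with sob3-6 above Col-0 and 8.84% with sob3-6 below. Calls and overlap rest on the same values, so this separation largely follows from the calls. Here and for called members of lists below it is a description only. Of 5173 genes with at least 2 tested transcripts, 0 had transcripts called in opposite directions by limma. Leaving out Col-0 replicate 2 gave 1047 higher calls as deposited and 518 on both scales. The same numbers were 1091 and 482 for Col-0 replicate 3, 1062 and 449 for sob3-6 replicate 2, and 976 and 464 for sob3-6 replicate 3.

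**Figure D1:**
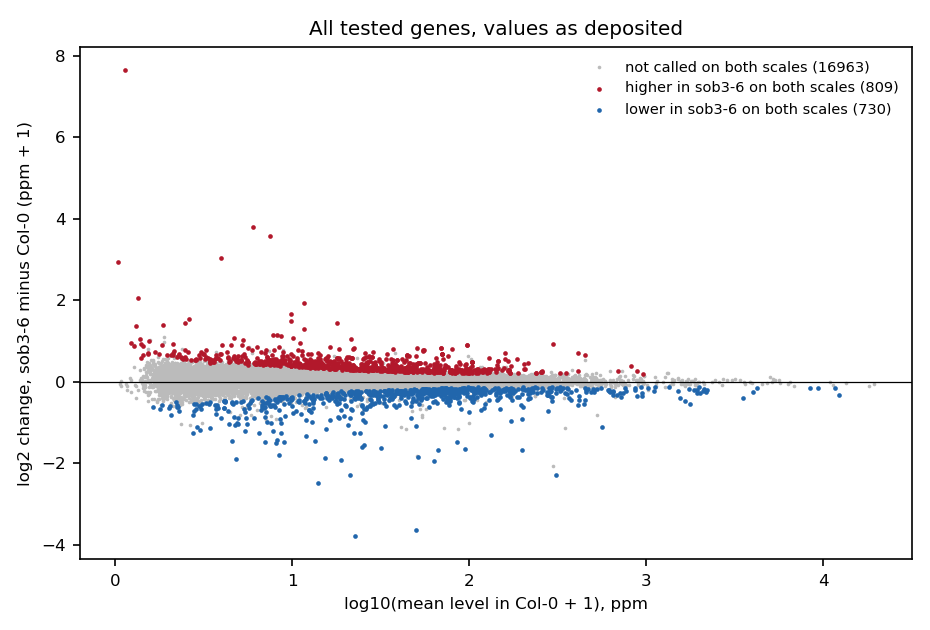
Each point is 1 of the 18502 tested genes, with the log10 of its mean Col-0 level plus 1 (ppm) on the horizontal axis and its log2 change in sob3-6 on the vertical axis. Red points are the 809 genes that rose and blue points the 730 that fell on both scales; most lie within 1 unit of 0, and at the right, above 1000 ppm, the coloured points are blue.

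SOB3 itself (AT1G76500, chromosome 1, 28704963 to 28706691, TAIR10.1 annotation) was examined first as a check of the labels. It was at 0.124, 0.312 and 0 ppm in Col-0, 7 reads in all, and at 232, 217 and 232 ppm in sob3-6. The sob3-6 libraries all carried far more SOB3 transcript than any Col-0 library (log2 change 7.65, SE 0.10, limma adjusted p = 1e-30), a value that depends on the pseudocount because Col-0 is near 0. Whether this transcript came from the altered copy was not analysed here.

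Beyond SOB3, the genes that rose by at least 2 log2 units were low in Col-0. Genes named by size of change, here and below, were picked among those without overlap between genotypes. Their separation was set by that choice and is a description only. The pseudogene AT4G08093 was at 0, 0 and 0.138 ppm in Col-0, 2 reads in all, and at 7.61, 6.39 and 7.24 ppm in sob3-6. It passed the filter only through the sob3-6 libraries and was not tested when 1 of them was left out. AT3G22235 and AT3G22240, neighbours of PCC1 that encode small cysteine-rich membrane proteins, reached 45.4, 102 and 123.3 ppm and 15.6, 40.3 and 46.0 ppm in sob3-6. Both were lowest in sob3-6 replicate 1 but lay above every Col-0 library, which did not exceed 10.2 ppm.

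Transporters of metal and sodium ions were among the genes that rose by 1 to 2 log2 units. HMA2 (AT4G30110, chromosome 4, 14720062 to 14725311), a P-type ATPase that exports zinc from cells and helps load it into the xylem, was at 20.6, 21.8 and 19.5 ppm in Col-0 and 41.5, 44.3 and 44.6 ppm in sob3-6 (log2 change 1.04, SE 0.08, limma adjusted p = 8.3e-11). Every sob3-6 library was above every Col-0 library, by 2.11-fold in the means. HKT1 (AT4G10310, chromosome 4, 6391854 to 6395922), which retrieves sodium from the xylem and so keeps it out of the shoot, was at 4.17, 4.24 and 4.42 ppm against 8.90, 11.0 and 9.31 ppm (log2 change 1.02, SE 0.13, limma adjusted p = 2.6e-06). The HKT1 groups were likewise apart. HIS1-3, a linker histone variant known for induction by drought, was at 7.22, 6.86 and 9.04 ppm and 17.0, 17.1 and 19.3 ppm (log2 change 1.12, SE 0.13, limma adjusted p = 2.7e-07), again with no overlap.

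Abundant signalling and wall genes rose by smaller steps with very tight replicates. SIP3 (AT4G30960, chromosome 4, 15067028 to 15069183), a protein kinase of the family that works with calcineurin B-like calcium sensors, was at 418, 404 and 409 ppm in Col-0 and 657, 668 and 699.6 ppm in sob3-6 (log2 change 0.72, SE 0.04, limma adjusted p = 2.9e-13). SKU5, a cell-surface protein related to multicopper oxidases that is known for its part in directional growth, was at 160.2, 150.3 and 162 ppm and 249, 259 and 261 ppm (log2 change 0.70, SE 0.05, limma adjusted p = 1.6e-11). In both genes the lowest sob3-6 library was more than 1.5-fold above the highest Col-0 library. The 14-3-3 genes GRF6 and GRF9, whose products bind phosphorylated partner proteins, also rose. GRF6 was at 208, 216 and 218 ppm and 294, 299.5 and 296 ppm (log2 change 0.47, SE 0.04, limma adjusted p = 1.1e-08). GRF9 was at 198, 211 and 203 ppm and 275, 277 and 281 ppm (log2 change 0.44, SE 0.04, limma adjusted p = 1.8e-08), so that the sob3-6 libraries of both genes were close to each other and all above Col-0. AT1G65220, an ARM repeat protein, went from 50.1, 47.8 and 51.1 ppm to 84.8, 88.4 and 94.1 ppm (log2 change 0.83, SE 0.06, limma adjusted p = 1.6e-11). The bHLH143 gene AT5G09460 had values identical to those of AT5G09461, so its reads are shared, and both changed by 0.47 (limma adjusted p = 2.7e-08).

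**Figure D2:**
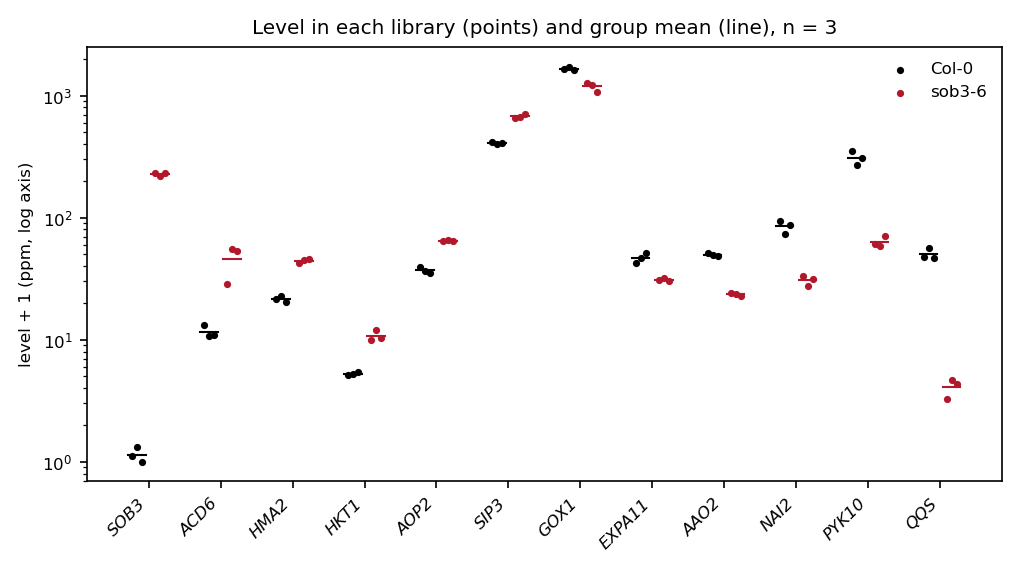
Points show the level plus 1 (ppm, log axis) of 12 genes in each library, black for Col-0 and red for sob3-6, and short lines the means of n = 3. From SOB3 to SIP3 every red point is above the black ones, and from GOX1 to QQS every red point is below them; in ACD6 sob3-6 replicate 1 (27.7 ppm) sits apart from the other sob3-6 libraries.

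ER bodies are rod-like compartments of the endoplasmic reticulum of Brassicaceae that store beta-glucosidases. When a cell is broken, PYK10 and its relatives meet glucosinolates and related glucosides there, while the classical myrosinases TGG1 and TGG2 are kept in other cells. In sob3-6 genes of the constitutive ER body fell, and TSA1 and BGLU18, which belong to the wound-inducible kind, rose. Of 23 tested members of the ER body and myrosinase list 10 fell and 7 rose, beside 3.95% and 4.37% of all tested genes. The median change of the list was -0.30 as deposited and -0.33 after scaling, beside 0.06 and 0.00 over all tested genes. Fewer cells of a type and less RNA per cell cannot be told apart in such bulk shoots. PYK10 is also a root marker. Of the other root markers SCR fell (log2 change -0.19), IRT1 was at 0, and FRO2 and PHT1;4 were not called, as given above, and their part in these changes was not tested. The number that rose was 4 when Col-0 replicate 3, sob3-6 replicate 1 or sob3-6 replicate 2 was left out.

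The beta-glucosidase PYK10 (AT3G09260, chromosome 3, 2840477 to 2843781) was at 348, 269 and 307 ppm in Col-0 and 59.9, 57.6 and 69.5 ppm in sob3-6, 4.95-fold lower in the means (log2 change -2.29, SE 0.11, limma adjusted p = 8.2e-07). NAI2 (AT3G15950, chromosome 3, 5397541 to 5402653), a protein needed to form ER bodies, was at 92.0, 72.9 and 86.8 ppm and 32.1, 26.3 and 30.3 ppm (log2 change -1.47, SE 0.10, limma adjusted p = 3.3e-07). PBP1 (AT3G16420, chromosome 3, 5579290 to 5581032), a jacalin-type lectin that binds PYK10, was at 215, 177 and 200.02 ppm and 62.8, 54.6 and 66.0 ppm (log2 change -1.68, SE 0.10, limma adjusted p = 1.5e-06). In these genes the highest sob3-6 library was below the lowest Col-0 library by a wide margin, and Col-0 replicate 2 was the lowest of its group each time.

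Further lectin and lipase-like genes fell. The jacalin-related lectin JAL33 was at 21.7, 13.8 and 18.5 ppm in Col-0 and 4.17, 4.03 and 3.74 ppm in sob3-6 (log2 change -1.91, SE 0.12, limma adjusted p = 1.7e-08). JAL22 was at 57.1, 41.8 and 52.6 ppm and 13.6, 11.2 and 15.4 ppm (log2 change -1.84, SE 0.12, limma adjusted p = 2.7e-06), and JAL31 at 7.34, 6.55 and 7.45 ppm and 1.603, 1.77 and 2.23 ppm (log2 change -1.51, SE 0.11, limma adjusted p = 8.3e-11). The groups of all these lectins were separate. GLL22, a GDSL lipase-like protein of the complex, was at 13.1, 10.1 and 10.0 ppm and 4.17, 2.85 and 4.46 ppm (log2 change -1.33, SE 0.14, limma adjusted p = 2.9e-07), and its relative AT1G54010 was at 109, 84.0 and 90.2 ppm and 30.7, 24.95 and 32.4 ppm (log2 change -1.65, SE 0.12, limma adjusted p = 8e-06), both lower in every sob3-6 library. Other jacalin-related lectin genes rose. JAL23 was at 8.34, 5.74 and 6.49 ppm in Col-0 and 15.8, 16.6 and 16.2 ppm in sob3-6 (log2 change 1.15, SE 0.26, limma adjusted p = 0.016). AT1G52000 was at 106, 84.8 and 97.8 ppm and 189.6, 206 and 148 ppm (log2 change 0.90, SE 0.17, limma adjusted p = 0.0097), and JR1, a lectin known for induction by jasmonate, at 104, 70.9 and 83.7 ppm and 125, 122 and 113 ppm (log2 change 0.49, SE 0.12, limma adjusted p = 0.026). These 3 were higher in every sob3-6 library. Reads of near-identical lectin genes may be shared. As deposited, JAL23 lost its call without Col-0 replicate 2 or 3 or sob3-6 replicate 2 or 3 (limma adjusted p up to 0.0582), and JR1 without Col-0 replicate 3 or any single sob3-6 library (up to 0.0818) and with the 6 libraries alone (0.119). JAL23 was also not called with a pseudocount of 0.25 (limma adjusted p = 0.0515), nor JR1 with edgeR (edgeR adjusted p = 0.0537). Of 15 tested jacalin-related lectin genes 3 rose and 5 fell, beside 4.37% and 3.95% of all tested genes. JAL23 and JR1, which rose, and JAL22, JAL31 and JAL33, which fell, are also counted in the ER body and myrosinase list. The 3 were 0 without Col-0 replicate 3, sob3-6 replicate 1 or sob3-6 replicate 2, so JAL23 and AT1G52000 were not called on both scales there. The count was 1 without Col-0 replicate 2 or sob3-6 replicate 3. NAI1, the bHLH regulator required for ER body formation, was at 5.29, 4.92 and 5.11 ppm and 3.93, 4.42 and 4.77 ppm and was not called (log2 change -0.19, SE 0.14, limma adjusted p = 0.4). The ER body membrane protein MEB1 was at 10.5, 8.73 and 9.04 ppm and 7.13, 7.76 and 7.40 ppm (log2 change -0.30, SE 0.11, limma adjusted p = 0.054) and was called only after scaling (limma adjusted p = 0.024).

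TSA1, the NAI2 relative of jasmonate-induced ER bodies, was at 62.6, 46.1 and 52.9 ppm in Col-0 and 89.8, 92.9 and 93.3 ppm in sob3-6 (log2 change 0.77, SE 0.13, limma adjusted p = 0.0047), higher in every library. BGLU18, its partner beta-glucosidase, known also for releasing abscisic acid from its glucose ester, was at 353, 240.1 and 291 ppm and 564, 652 and 464 ppm (log2 change 0.93, SE 0.19, limma adjusted p = 0.015). The call of BGLU18 was lost when Col-0 replicate 2 (limma adjusted p = 0.0538), Col-0 replicate 3 (0.0509) or sob3-6 replicate 2 (0.0565) was left out, and with the 6 libraries of both genotypes alone (0.0523). Among the proteins that steer glucosinolate breakdown, ESP, which directs it to nitriles and epithionitriles, was at 26.4, 26.7 and 25.3 ppm and 41.3, 40.7 and 41.9 ppm (log2 change 0.64, SE 0.08, limma adjusted p = 4.3e-07). ESM1, which favours isothiocyanates, was at 862, 830.3 and 778 ppm and 1039, 1108 and 1081 ppm (log2 change 0.39, SE 0.07, limma adjusted p = 0.0019), and the nitrile specifier NSP1 was at 183, 152 and 171 ppm and 135, 121 and 136 ppm (log2 change -0.37, SE 0.07, limma adjusted p = 0.0012). ESP and ESM1 were higher and NSP1 lower in all sob3-6 libraries. The myrosinase TGG2 was at 894, 862 and 891 ppm and 1052, 1081 and 1038 ppm (log2 change 0.26, SE 0.05, limma adjusted p = 0.00023), a rise of 1.198-fold with no overlap, while TGG1 was at 2699, 2739 and 2712 ppm and 2698, 2899 and 2927 ppm and was not called (log2 change 0.06, SE 0.05, limma adjusted p = 0.41).

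The 250 bases upstream of the annotated gene starts of PYK10, NAI2 and PBP1, which fell together, and of CYP79B3, which rose, are shown because SOB3 is known as a binder of AT-rich DNA and PIF proteins as binders of the G-box CACGTG, written here in capitals. They are from the RefSeq TAIR10.1 genome, 5′ to 3′ on the strand of the gene. PYK10 lies on the minus strand with its window at chr3:2843782-2844031, NAI2 on the minus strand at chr3:5402654-5402903, PBP1 on the plus strand at chr3:5579040-5579289 and CYP79B3 on the plus strand at chr2:9488163-9488412.
PYK10: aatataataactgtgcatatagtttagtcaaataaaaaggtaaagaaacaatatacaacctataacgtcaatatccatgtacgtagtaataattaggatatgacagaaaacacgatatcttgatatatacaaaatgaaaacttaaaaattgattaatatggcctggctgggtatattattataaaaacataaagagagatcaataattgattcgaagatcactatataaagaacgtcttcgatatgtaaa
NAI2: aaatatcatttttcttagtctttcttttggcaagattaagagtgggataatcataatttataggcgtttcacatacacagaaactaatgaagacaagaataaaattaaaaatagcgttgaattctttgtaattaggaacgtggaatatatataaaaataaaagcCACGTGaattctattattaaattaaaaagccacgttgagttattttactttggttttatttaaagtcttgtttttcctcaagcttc
PBP1: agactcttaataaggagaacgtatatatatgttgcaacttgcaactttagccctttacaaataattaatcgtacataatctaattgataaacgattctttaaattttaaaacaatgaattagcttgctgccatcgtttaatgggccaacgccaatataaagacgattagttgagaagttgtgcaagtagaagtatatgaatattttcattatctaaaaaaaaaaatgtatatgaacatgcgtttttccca
CYP79B3: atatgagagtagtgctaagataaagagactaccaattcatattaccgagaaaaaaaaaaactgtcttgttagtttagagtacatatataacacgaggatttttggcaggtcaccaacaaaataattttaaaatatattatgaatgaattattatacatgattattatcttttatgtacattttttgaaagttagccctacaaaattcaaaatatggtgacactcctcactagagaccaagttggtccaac

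These windows were 74.0% A or T in PYK10, 73.2% in NAI2 and 70.8% in both PBP1 and CYP79B3. Over 18296 tested genes with a window the median was 68.4%, and it was 69.2% both in 779 genes that rose and in 724 that fell. NAI2 held 1 CACGTG and the other windows 0. The palindromic motif, read on both strands at once, was in 7.30% of all windows, in 8.22% of those of genes that rose and in 8.29% of those that fell. A match is a description of the sequence and not a binding site, and no match says only that these letters are not in the window.

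**Figure D3:**
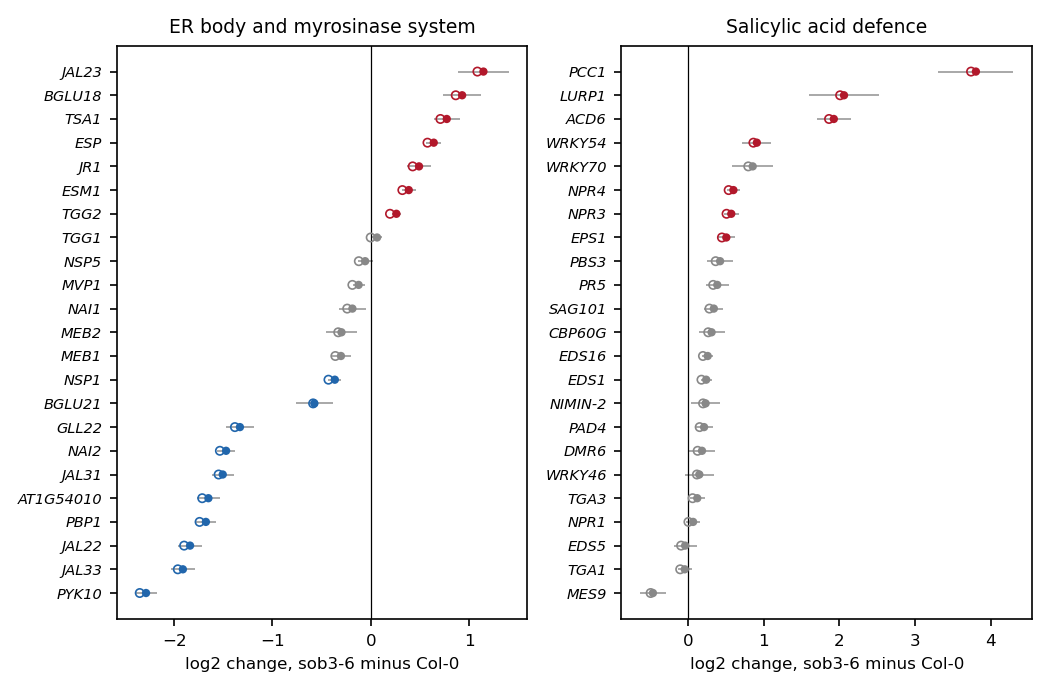
The horizontal axis is the log2 change, sob3-6 minus Col-0, of each tested member of the ER body and myrosinase list (left) and the salicylic acid defence list (right), filled points with their SE as deposited and open points after median-of-ratios scaling. Blue members fell, red members rose and grey ones were not called on both scales; PYK10 (-2.29) and PCC1 (3.81) are at the ends.

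Glucosinolates are the sulfur-rich defence compounds that these enzymes act on, made from tryptophan (indole type) or from chain-extended methionine (aliphatic type). Genes of both branches rose modestly in sob3-6, and 0 of either list fell. Of 14 tested indole genes 5 rose (median change 0.28 as deposited and 0.22 after scaling), and of 23 aliphatic genes 5 rose (0.16 and 0.10), beside 4.37% of all tested genes. The indole count was 2 when replicate 2 of either genotype was left out, 1 for Col-0 replicate 3 and 3 for sob3-6 replicate 1. The aliphatic count was 3 without Col-0 replicate 3 or sob3-6 replicate 3.

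Genes along the indole pathway rose. CYP79B3 (AT2G22330, chromosome 2, 9488413 to 9491404), which turns tryptophan into its oxime at the entry, was at 39.1, 32.2 and 36.6 ppm in Col-0 and 55.8, 50.8 and 50.5 ppm in sob3-6 (log2 change 0.53, SE 0.07, limma adjusted p = 1e-05). The C-S lyase SUR1 was at 164, 147 and 144 ppm and 189, 183 and 179 ppm (log2 change 0.28, SE 0.05, limma adjusted p = 0.00065), and the sulfotransferase SOT16, of the last step of the core, at 70.8, 62.6 and 63.6 ppm and 80.4, 87.3 and 73.2 ppm (log2 change 0.28, SE 0.06, limma adjusted p = 0.0013). The genotypes did not overlap in any of the 3. AOP2 (AT4G03060), the side-chain dioxygenase known to be truncated in the Col-0 ecotype and annotated as a pseudogene, rose from 38.1, 35.8 and 34.2 ppm to 63.2, 64.7 and 63.5 ppm (log2 change 0.81, SE 0.06, limma adjusted p = 1.8e-10). FMO GS-OX3, an S-oxygenase of aliphatic side chains, was at 90.7, 84.8 and 75.5 ppm and 112, 113 and 104 ppm (log2 change 0.39, SE 0.07, limma adjusted p = 0.00034), and CYP79F1, at the entry to the aliphatic core, at 433, 391 and 409 ppm and 473, 508 and 513 ppm (log2 change 0.28, SE 0.06, limma adjusted p = 0.0017). Every sob3-6 library of these was above Col-0. The chain-extension enzymes MAM1, BCAT4 and IMS2 were not called: MAM1 was at 436, 416 and 419.7 ppm and 412, 450.4 and 457 ppm (log2 change 0.05, limma adjusted p = 0.52).

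Salicylic acid is the hormone of defence against biotrophic pathogens, made mostly through isochorismate and read by the NPR proteins. In sob3-6 the receptors NPR3 and NPR4 and some responsive genes rose. Of the synthesis and transport genes EPS1 rose, and EDS16, PBS3 and EDS5 were not called on both scales. Of 23 tested members of the list 7 rose and 0 fell, with a median of 0.31 as deposited and 0.26 after scaling, beside 4.37% and 3.95% called and medians of 0.06 and 0.00 over all tested genes. In 4 of the 7, sob3-6 replicate 1 was the lowest of its group, and the count was 4 without sob3-6 replicate 2. LURP1 and WRKY54, among the 7, reached 1 ppm only in the sob3-6 libraries. They passed the filter only through the group where they were higher, and were not tested when a sob3-6 library was left out, which lowers the count.

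ACD6 (AT4G14400, chromosome 4, 8294165 to 8299195), an ankyrin-repeat membrane protein that promotes salicylic acid-dependent defence, was at 12.2, 9.79 and 9.94 ppm in Col-0 and 27.7, 54.5 and 52.6 ppm in sob3-6, 4.22-fold higher in the means (log2 change 1.93, SE 0.23, limma adjusted p = 0.00033). In sob3-6 replicate 1 it was between Col-0 and the other sob3-6 libraries. PCC1 was at 3.30, 2.93 and 8.83 ppm and 38.1, 97.9 and 116 ppm, with the same library lowest (log2 change 3.81, SE 0.50, limma adjusted p = 0.0016). The receptors varied less between replicates. NPR4 was at 17.3, 16.4 and 17.0 ppm and 23.6, 27.3 and 27.5 ppm (log2 change 0.60, SE 0.08, limma adjusted p = 6.6e-06), and NPR3 at 13.3, 14.4 and 15.3 ppm and 21.5, 21.2 and 22.4 ppm (log2 change 0.57, SE 0.10, limma adjusted p = 0.00015), both above Col-0 in every library. NPR1, the third of these receptors, was at 21.3, 22.1 and 21.7 ppm and 19.9, 22.0 and 26.8 ppm and was not called (log2 change 0.06, SE 0.09, limma adjusted p = 0.7). EPS1, an acyltransferase-family enzyme of the final step of salicylic acid synthesis, was at 6.59, 5.61 and 5.94 ppm and 9.22, 9.63 and 8.12 ppm (log2 change 0.50, SE 0.12, limma adjusted p = 0.0039). Isochorismate synthase EDS16 was at 22.4, 24.1 and 22.2 ppm and 27.0, 27.2 and 28.4 ppm (log2 change 0.26, SE 0.07, limma adjusted p = 0.018) and was called only as deposited. The marker PR5 was at 3.86, 4.43 and 2.48 ppm and 4.65, 4.91 and 5.09 ppm (log2 change 0.38, SE 0.15, limma adjusted p = 0.098) and EDS5, the exporter of isochorismate, at 5.79, 4.68 and 4.97 ppm and 3.85, 7.07 and 4.38 ppm (log2 change -0.04, SE 0.15, limma adjusted p = 0.89), neither of which was called.

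Calls on both scales in lists of immune receptor genes are to be read beside the 4.37% higher and 3.95% lower of all tested genes. Of 22 tested cysteine-rich receptor-like kinases 4 rose and 1 fell (median 0.27 and 0.21). As deposited 9 were higher, beside 9.43% of all tested genes. The 4 that rose were 1 when sob3-6 replicate 2 and 2 when sob3-6 replicate 1 or 3 was left out. CRK5, 1 of the 4, passed the filter only through the sob3-6 libraries and was not tested when 1 of them was left out. CRK10 was at 18.4, 16.0 and 18.1 ppm in Col-0 and 20.8, 29.96 and 29.7 ppm in sob3-6 (log2 change 0.58, SE 0.11, limma adjusted p = 0.00061), and the opposite change of CRK30 was from 2.86, 2.56 and 3.52 ppm to 1.12, 1.38 and 0.955 ppm (log2 change -0.89, SE 0.18, limma adjusted p = 0.0011). Of 108 NLR disease resistance genes 4 rose and 3 fell, with medians of 0.05 and -0.00, beside 0.06 and 0.00 over all genes. The 4 were 1 without Col-0 replicate 1, Col-0 replicate 3, sob3-6 replicate 2 or sob3-6 replicate 3 and 2 without Col-0 replicate 2, and the 3 were 1 without Col-0 replicate 1. The number of NLR genes lower was 17 after median-of-ratios scaling, 11 after quantile normalization and 19 with edgeR. Over all 18502 tested genes the same counts were 1253, 1032 and 1366. AT1G72860, a TIR-type NLR, was at 6.35, 4.24 and 4.21 ppm and 8.82, 8.15 and 10.3 ppm (log2 change 0.78, SE 0.13, limma adjusted p = 0.00017). Of 126 leucine-rich repeat receptor kinases 9 rose and 4 fell, but the 9 were 3 without Col-0 replicate 2, sob3-6 replicate 2 or sob3-6 replicate 3, 4 without Col-0 replicate 1 or sob3-6 replicate 1 and 5 without Col-0 replicate 3. The 4 that fell were 2 without replicate 2 of either genotype. Among them CLV1, the meristem receptor for CLV3 peptide, rose from 69.9, 66.8 and 67.0 ppm to 86.7, 88.9 and 97.6 ppm (log2 change 0.42, SE 0.06, limma adjusted p = 5.1e-06). AT3G46370 fell from 21.0, 23.6 and 19.4 ppm to 9.06, 8.84 and 7.08 ppm (log2 change -1.26, SE 0.11, limma adjusted p = 2.6e-09), with the groups wide apart.

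Many of the abundant transcripts that fell belong to leaf carbon metabolism. Photorespiration salvages the phosphoglycolate that Rubisco makes when it fixes oxygen, through chloroplast, peroxisome and mitochondrion, and the Calvin cycle fixes carbon in the chloroplast. In sob3-6 peroxisomal oxidases and aminotransferases and the P protein genes of glycine decarboxylase fell. Of 21 photorespiration genes, a list drawn up after values were seen, 13 fell and 0 rose (median -0.21 as deposited and -0.27 after scaling). Of 20 Calvin cycle genes 11 fell and 0 rose (-0.14 and -0.21), against 3.95% of all tested genes. After quantile normalization the lower members were 10 of photorespiration and 7 of the Calvin cycle, beside 1032 of all 18502 tested genes. The Calvin count was 6 when Col-0 replicate 2 and 7 when Col-0 replicate 1 or sob3-6 replicate 3 was left out. Of the 3 mesophyll markers, whose summed levels are given above, FBA2 fell, RBCS1A was called only after scaling and CAB2 overlapped between genotypes and was not called. FBA2 and RBCS1A are also Calvin cycle genes, and the part of mesophyll in these counts was not tested.

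In the peroxisome, glycolate oxidase GOX1 (AT3G14420, chromosome 3, 4821391 to 4824178) was at 1636, 1722 and 1615 ppm in Col-0 and 1270.1, 1226 and 1077 ppm in sob3-6 (log2 change -0.48, SE 0.05, limma adjusted p = 8.7e-08). GOX2 was at 936, 979 and 935 ppm and 763, 784 and 698 ppm (log2 change -0.35, SE 0.04, limma adjusted p = 2.3e-06). The catalase CAT2, which removes the hydrogen peroxide that these oxidases release, was at 1877, 1744 and 1656 ppm and 1291, 1238 and 1073 ppm (log2 change -0.55, SE 0.09, limma adjusted p = 0.0018). For all 3 the sob3-6 libraries were below Col-0, with sob3-6 replicate 3 lowest. GOX1 and GOX2 are near-identical neighbours and may share reads. The aminotransferases that make glycine from glyoxylate were lower too: AGT was at 1521, 1626 and 1488 ppm and 1179, 1218 and 1130.2 ppm (log2 change -0.39, SE 0.04, limma adjusted p = 2e-07). AOAT2 was at 99.9, 104 and 91.0 ppm and 60.5, 62.0 and 54.2 ppm (log2 change -0.73, SE 0.06, limma adjusted p = 1.4e-10), the largest change of the list. Hydroxypyruvate reductase HPR was at 968, 976 and 888 ppm and 808, 809 and 737 ppm (log2 change -0.27, SE 0.05, limma adjusted p = 0.00024).

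In the mitochondrion, the P protein of glycine decarboxylase GLDP1 was at 3707, 3636 and 3141 ppm in Col-0 and 2678, 2816 and 2407 ppm in sob3-6 (log2 change -0.41, SE 0.07, limma adjusted p = 0.002). A further copy, GLDP2, was at 921, 909.7 and 828 ppm and 714, 756 and 629 ppm (log2 change -0.34, SE 0.06, limma adjusted p = 0.00056), and the carrier BOU, which is needed for glycine decarboxylase activity, at 103, 105 and 99.3 ppm and 76.0, 77.5 and 66.3 ppm (log2 change -0.48, SE 0.06, limma adjusted p = 4.6e-06). These fell in every sob3-6 library. The H protein gene GDCH was at 316, 314 and 299 ppm and 331, 307 and 294 ppm and was not called (log2 change 0.01, SE 0.05, limma adjusted p = 0.95). Of the chloroplast genes, phosphoglycolate phosphatase PGLP1 (0.10, limma adjusted p = 0.19) and glutamine synthetase GS2 (0.01, limma adjusted p = 0.85) were not called. The glutamate synthase GLU1, which works with GS2 in recapturing ammonia, was at 1841, 1939.6 and 1806 ppm and 1657, 1651 and 1527 ppm and fell (log2 change -0.21, SE 0.04, limma adjusted p = 0.0012).

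In the Calvin cycle the genes that fell did so by less than 0.4 on the log2 scale. Rubisco activase RCA was at 12077, 12729 and 12013 ppm in Col-0 and 10323, 9954 and 9278 ppm in sob3-6 (log2 change -0.32, SE 0.04, limma adjusted p = 1.8e-06), and its mean level fell by 2421 ppm. Transketolase AT3G60750 was at 1948, 2076 and 1974 ppm and 1677, 1674 and 1623 ppm (log2 change -0.27, SE 0.04, limma adjusted p = 7.7e-06), and aldolase FBA2 at 4053, 4060.0 and 3895 ppm and 3435, 3489 and 3221 ppm (log2 change -0.24, SE 0.04, limma adjusted p = 0.00011). Phosphoribulokinase PRK was at 1903, 2035 and 1891 ppm and 1653, 1752 and 1631 ppm (log2 change -0.21, SE 0.04, limma adjusted p = 0.0013). All 4 were lower in each sob3-6 library. The aldolase FBA1 (-0.26) lost its call without Col-0 replicate 1 (limma adjusted p = 0.0878) and without Col-0 replicate 2 (0.0912). The small subunit genes RBCS1B, RBCS2B and RBCS3B lost theirs without Col-0 replicate 1, Col-0 replicate 2 or sob3-6 replicate 3 (limma adjusted p up to 0.186). They also lost them without a filter on low values (limma adjusted p up to 0.0782). After quantile normalization their changes were 0.00, 0.00 and 0.06. GAPB lost its call without sob3-6 replicate 3 (limma adjusted p = 0.0781) and after quantile normalization (0.202). CP12-2 lost its call without Col-0 replicate 2 (limma adjusted p = 0.0563). The Rubisco small subunit gene RBCS1A, the most abundant of the list, was at 18307, 18206 and 17556 ppm and 16890.2, 17325 and 16282 ppm and was called only after scaling (log2 change -0.10, SE 0.04, limma adjusted p = 0.065), and reads of the near-identical RBCS genes may be shared. Phosphoglycerate kinase PGK1 went the other way as deposited, 1276, 1286 and 1243 ppm against 1435, 1368 and 1333 ppm (log2 change 0.12, SE 0.04, limma adjusted p = 0.037), and was not called after scaling (limma adjusted p = 0.45).

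Summed over the list, Calvin cycle transcripts were at 81004, 81470 and 77462 ppm in Col-0 and 72655, 73338 and 67852 ppm in sob3-6, 1.12-fold lower. Photorespiration transcripts summed to 23126, 23675 and 22047 ppm and to 19826, 19917 and 18093 ppm, 1.19-fold lower. Neither sum overlapped between genotypes. The photorespiration list was drawn up after its values were seen, so its sum and its place among the losses below are descriptions only. Reads shared among the RBCS genes, or between GOX1 and GOX2, may count more than once in these sums and in the losses below. The 20 genes with the largest loss of mean ppm held 30.7% of all ppm lost, and 9 of them were Calvin cycle and 5 photorespiration genes. FBA5, another aldolase gene, singled out after its values were seen, also stood among them, at means of 562 and 257 ppm. Meanwhile 12089 tested genes had a higher and 6413 a lower mean ppm in sob3-6. As ppm are shares of a library, losses in a few abundant genes and gains over many others come together in such values, and their part in the count of higher calls was not tested.

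**Figure D4:**
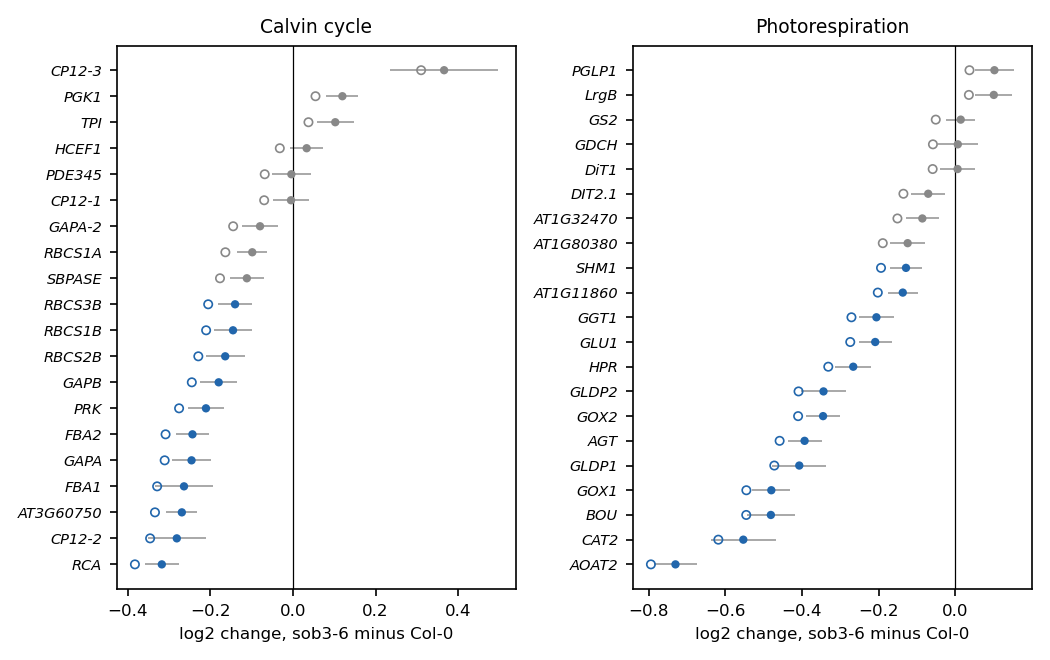
The horizontal axis is the log2 change, sob3-6 minus Col-0, of each Calvin cycle (left) and photorespiration gene (right), filled points with their SE as deposited and open points after median-of-ratios scaling. Blue members fell on both scales. In the Calvin cycle 11 of 20 are blue, and in photorespiration, a list drawn up after its values were seen, 13 of 21. AOAT2 (-0.73) is lowest, and no member is red.

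Of 45 light-harvesting and photosystem genes 1 rose and 3 fell, beside 4.37% and 3.95% of all tested genes. Their medians were -0.00 and -0.07, and quantile normalization gave 8 higher and 2 lower, beside 896 and 1032 of all 18502 tested genes. LHCB4.3, a minor antenna protein gene, fell from 22.8, 20.6 and 16.0 ppm to 8.34, 11.7 and 7.002 ppm (log2 change -1.07, SE 0.17, limma adjusted p = 0.0016). PSBP-2, a relative of the oxygen-evolving complex protein, rose from 7.78, 8.91 and 7.18 ppm to 12.5, 14.1 and 14.6 ppm (log2 change 0.72, SE 0.12, limma adjusted p = 6e-05). PORA, the protochlorophyllide oxidoreductase known from dark-grown seedlings, was at 7.22, 10.0 and 9.18 ppm and 26.4, 26.4 and 37.3 ppm, 3.41-fold higher (log2 change 1.66, SE 0.18, limma adjusted p = 3.7e-05), with sob3-6 replicate 3 the highest and no overlap. Of 83 tested transcripts of the chloroplast genome 5 fell and 0 rose, a count that was 7 without Col-0 replicate 2, 1 without sob3-6 replicate 1 or 2, and 2 without any other single library. Their sum overlapped between the genotypes.

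Among genes that fell by less than 0.5 on the log2 scale, a redox and a lipid gene of the chloroplast had the lowest limma adjusted p beside GOX1. CDSP32, a chloroplast thioredoxin-like protein, was at 359, 365 and 367 ppm in Col-0 and 274, 271 and 277 ppm in sob3-6 (log2 change -0.41, SE 0.04, limma adjusted p = 3.4e-08). FAB1, a ketoacyl-ACP synthase that elongates fatty acids in the plastid, was at 169, 175 and 175 ppm and 131, 120.1 and 130.1 ppm (log2 change -0.44, SE 0.05, limma adjusted p = 8.7e-08). Replicates of both were tight and the groups separate. Of 18 reactive oxygen and stress genes 4 fell and 0 rose, beside 3.95% and 4.37% of all tested genes. The count was also 4 whichever library was left out. GPX7, a glutathione peroxidase-like protein, was at 4.73, 5.24 and 3.87 ppm and 1.28, 1.77 and 2.23 ppm (log2 change -1.03, SE 0.14, limma adjusted p = 6.9e-06), the chloroplast superoxide dismutase CSD2 at 24.3, 28.9 and 20.2 ppm and 16.4, 13.0 and 15.8 ppm (log2 change -0.66, SE 0.11, limma adjusted p = 0.0004) and the alternative oxidase AOX1A at 24.2, 26.4 and 29.9 ppm and 17.1, 19.3 and 21.7 ppm (log2 change -0.45, SE 0.08, limma adjusted p = 0.00026). No sob3-6 library of these reached the Col-0 range.

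Of 43 tested starch and sugar genes 5 fell and 1 rose, beside 3.95% and 4.37% of all tested genes. The chloroplast beta-amylase CT-BMY, which releases maltose at night, was at 160.2, 151 and 135 ppm in Col-0 and 97.8, 98.0 and 82.8 ppm in sob3-6 (log2 change -0.67, SE 0.09, limma adjusted p = 0.00023). SEX1, the dikinase that phosphorylates starch before its breakdown, was at 131, 161 and 154 ppm and 112, 109 and 120.2 ppm (log2 change -0.38, SE 0.08, limma adjusted p = 0.0039). Both were lower in all sob3-6 libraries. The neutral invertase A/N-InvA, which splits sucrose, was at 24.6, 24.4 and 23.2 ppm and 11.0, 11.6 and 14.2 ppm (log2 change -0.93, SE 0.09, limma adjusted p = 1.3e-08). QQS, the orphan gene linked to starch content, was at 46.2, 55.8 and 46.0 ppm and 2.24, 3.63 and 3.34 ppm, 16.0-fold lower in the means (log2 change -3.64, SE 0.15, limma adjusted p = 9.7e-17). QQS was lower still in the other lines, at 1.21 ± 0.278 ppm (mean ± SD, n = 3) in SOB3-D and 0.676 ± 0.239 ppm in pif4 pif5 pif7, which are compared with the same Col-0 libraries, so that Col-0 stood above every other line.

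Genes of abscisic acid, the drought hormone, were called only as lower. Of 29 tested members of its list 6 fell and 0 rose, beside 3.95% and 4.37% of all tested genes, a count that was 3 without Col-0 replicate 2, Col-0 replicate 3, sob3-6 replicate 1 or sob3-6 replicate 2. CYP707A2, which inactivates the hormone, was at 11.5, 12.3 and 11.9 ppm in Col-0 and 6.09, 4.81 and 5.73 ppm in sob3-6 (log2 change -0.98, SE 0.11, limma adjusted p = 3e-07). ABA1, zeaxanthin epoxidase at the start of the pathway, was at 637, 693 and 608 ppm and 521, 540.3 and 497 ppm (log2 change -0.31, SE 0.05, limma adjusted p = 2.8e-05), and the receptor PYL4 at 40.3, 30.7 and 39.4 ppm and 21.1, 26.0 and 26.6 ppm (log2 change -0.56, SE 0.12, limma adjusted p = 0.0099). Enzymes of synthesis and of inactivation and a receptor were all lower in every sob3-6 library. The aldehyde oxidase AAO2 (AT3G43600, chromosome 3, 15511832 to 15517545), a relative of the oxidase of the last step, was at 50.01, 48.9 and 47.7 ppm and 23.3, 22.5 and 21.7 ppm (log2 change -1.08, SE 0.05, limma adjusted p = 1.2e-14), 2.17-fold lower with the lowest p of all genes that fell by 1 to 2 log2 units.

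Of 26 brassinosteroid genes 5 fell and 1 rose, beside 3.95% and 4.37% of all tested genes, and 3 fell without sob3-6 replicate 1. BR6OX2, the enzyme that makes brassinolide, was at 40.1, 42.1 and 41.4 ppm in Col-0 and 32.0, 31.8 and 36.7 ppm in sob3-6 (log2 change -0.29, SE 0.06, limma adjusted p = 0.0019). BEE3, a bHLH factor induced by the hormone, was at 23.1, 20.9 and 23.5 ppm and 17.5, 16.0 and 18.9 ppm (log2 change -0.35, SE 0.09, limma adjusted p = 0.0059), and TCH4, a wall enzyme gene it induces, at 6.59, 6.61 and 6.90 ppm and 4.17, 4.22 and 4.06 ppm (log2 change -0.58, SE 0.14, limma adjusted p = 0.0047). The groups were separate in each. GASA1, a small peptide gene known as a target of gibberellin and brassinosteroid signalling, fell from 96.0, 92.2 and 77.6 ppm to 59.5, 57.0 and 48.7 ppm (log2 change -0.68, SE 0.12, limma adjusted p = 0.0047). The cytokinin-activating enzyme LOG1 fell from 31.0, 30.6 and 28.3 ppm to 18.5, 20.04 and 25.3 ppm (log2 change -0.49, SE 0.09, limma adjusted p = 0.00039), with sob3-6 replicate 3 nearest to Col-0. Of 44 SAUR genes, small auxin-induced growth genes, 1 rose and 2 fell (median 0.06 and 0.01). Of 9 genes of the GH3 family, which includes PBS3, 0 were called by limma as deposited. In the GH3 family 2 were lower after scaling, after quantile normalization and in edgeR, beside 6.77% of all tested genes after scaling. For jasmonate 3 of 26 genes rose, and 1 did without any 1 of Col-0 replicates 2 and 3 and the 3 sob3-6 libraries. LOX6, a lipoxygenase at the start of jasmonate synthesis, was at 33.2, 31.0 and 31.7 ppm and 37.6, 42.3 and 43.1 ppm (log2 change 0.35, SE 0.07, limma adjusted p = 0.0012).

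Wall-loosening genes did not move as 1 group. Expansins loosen the wall at acid pH and XTH enzymes cut and rejoin xyloglucan. Of 19 tested expansin genes 4 fell and 2 rose, 1 of the 2 without sob3-6 replicate 1, and of 18 XTH genes 4 fell and 0 rose. These counts, and those of pectin genes below, are to be read beside 3.95% lower and 4.37% higher over all tested genes. EXPA11 was at 41.4, 45.5 and 50.2 ppm in Col-0 and 29.8, 30.9 and 29.5 ppm in sob3-6 (log2 change -0.58, SE 0.07, limma adjusted p = 5.1e-07), whereas the expansin-like gene EXLB1 was at 16.1, 15.5 and 14.6 ppm and 30.2, 27.8 and 27.4 ppm (log2 change 0.84, SE 0.09, limma adjusted p = 1.2e-07). Their groups were apart in opposite directions. XTH31 was at 93.0, 81.0 and 80.5 ppm and 68.3, 63.7 and 61.2 ppm (log2 change -0.39, SE 0.08, limma adjusted p = 0.0044), and EXGT-A3 at 86.9, 82.2 and 89.5 ppm and 62.6, 72.7 and 66.2 ppm (log2 change -0.36, SE 0.08, limma adjusted p = 0.0037), both below Col-0 in all libraries. Of 88 pectin-modifying genes 7 rose and 1 fell, and 4 rose without Col-0 replicate 2, sob3-6 replicate 2 or sob3-6 replicate 3. The pectin methylesterase PME5 was at 95.7, 94.4 and 93.6 ppm and 139, 124 and 125 ppm (log2 change 0.45, SE 0.06, limma adjusted p = 1.1e-05). Of 14 cellulose synthesis genes 0 were called on both scales, and 3 were higher as deposited, beside 9.43% of all tested genes.

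Of 25 B-box genes, zinc finger factors of the light response, 6 fell and 3 rose, beside 3.95% and 4.37% of all tested genes. BBX29 was at 7.09, 7.11 and 8.49 ppm in Col-0 and 4.65, 3.05 and 3.10 ppm in sob3-6 (log2 change -0.91, SE 0.13, limma adjusted p = 1.5e-05), and BBX31 at 3.42, 3.93 and 3.796 ppm and 1.68, 1.47 and 1.59 ppm (log2 change -0.87, SE 0.14, limma adjusted p = 6.7e-05). BBX14, a more abundant member, was at 174, 166 and 162 ppm and 201.1, 206 and 193 ppm (log2 change 0.26, SE 0.05, limma adjusted p = 0.00027). The first pair was lower and BBX14 higher in every sob3-6 library. Of 26 clock genes 3 fell and 0 rose, beside the same shares. RVE1, a MYB-like factor that ties the clock to auxin, was at 44.8, 44.3 and 40.7 ppm and 29.8, 33.2 and 27.3 ppm (log2 change -0.51, SE 0.07, limma adjusted p = 2.6e-06), and GI, the evening gene GIGANTEA, at 23.5, 29.1 and 30.9 ppm and 17.3, 17.4 and 21.0 ppm (log2 change -0.55, SE 0.09, limma adjusted p = 0.00012), each without overlap at this single hour of the day.

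Genes of nutrient transport and of the leaf surface changed in both directions. YSL3, a transporter of metal-nicotianamine chelates known from veins and senescing leaves, was at 23.9, 23.8 and 27.6 ppm in Col-0 and 36.2, 41.4 and 39.5 ppm in sob3-6 (log2 change 0.62, SE 0.08, limma adjusted p = 1.1e-06). FRO3, a ferric reductase of mitochondria, was at 20.6, 18.1 and 21.5 ppm and 25.2, 32.9 and 36.4 ppm (log2 change 0.61, SE 0.13, limma adjusted p = 0.007), and the chloroplast reductase FRO7 at 252, 263 and 243 ppm and 222, 223 and 192 ppm (log2 change -0.25, SE 0.07, limma adjusted p = 0.024). FRO7 lost its call without Col-0 replicate 1 (limma adjusted p = 0.0684), Col-0 replicate 2 (0.101) and sob3-6 replicate 3 (0.0938). Of 23 tested iron genes 4 rose and 4 fell, beside 4.37% and 3.95% of all tested genes. The 4 that rose were 2 without any single library other than sob3-6 replicate 1, and the 4 that fell were 1 without Col-0 replicate 1, sob3-6 replicate 1 or sob3-6 replicate 2 and 2 without Col-0 replicate 2 or sob3-6 replicate 3. Among nitrate transporters NRT2.7, which stores nitrate in the vacuole, was at 44.6, 46.4 and 43.8 ppm and 62.7, 62.4 and 63.3 ppm (log2 change 0.47, SE 0.06, limma adjusted p = 1.6e-06), while the dual-affinity transporter and sensor NRT1.1 was at 53.1, 50.9 and 51.4 ppm and 42.1, 44.99 and 42.7 ppm (log2 change -0.25, SE 0.05, limma adjusted p = 0.0015). Neither overlapped between genotypes. CER1, an enzyme of wax alkane synthesis in the epidermis, was at 54.1, 58.6 and 48.6 ppm and 95.9, 107 and 74.9 ppm (log2 change 0.76, SE 0.14, limma adjusted p = 0.0064), with sob3-6 replicate 3 the closest to Col-0. TRY, a small MYB that suppresses trichomes, was at 5.04, 5.80 and 4.56 ppm and 2.56, 2.46 and 1.91 ppm (log2 change -0.89, SE 0.14, limma adjusted p = 3.3e-05).

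Of the 63 gene lists, 46 had at least 2 members called on both scales and 8 had 0. Calls of cytosolic ribosomal protein genes depended on the scale. Of 167 tested, 6 fell on both scales, beside 3.95% of all tested genes, and 42 were lower after scaling, beside 6.77%. On either scale 0 were higher, and the medians were -0.07 and -0.13. The 6 were 1 without Col-0 replicate 1 or 3 and 0 without sob3-6 replicate 2. Vascular (15 tested), stomatal (19), tubulin (15), class III peroxidase (22), plastid ribosomal protein (33), mitochondrial genome (44) and cellulose synthesis (14) lists had 0 members called on both scales. As deposited, limma called 4 vascular, 1 stomatal, 2 tubulin, 2 peroxidase, 2 mitochondrial and 0 plastid ribosomal protein genes higher, beside 9.43% of all tested genes.

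**Figure D5:**
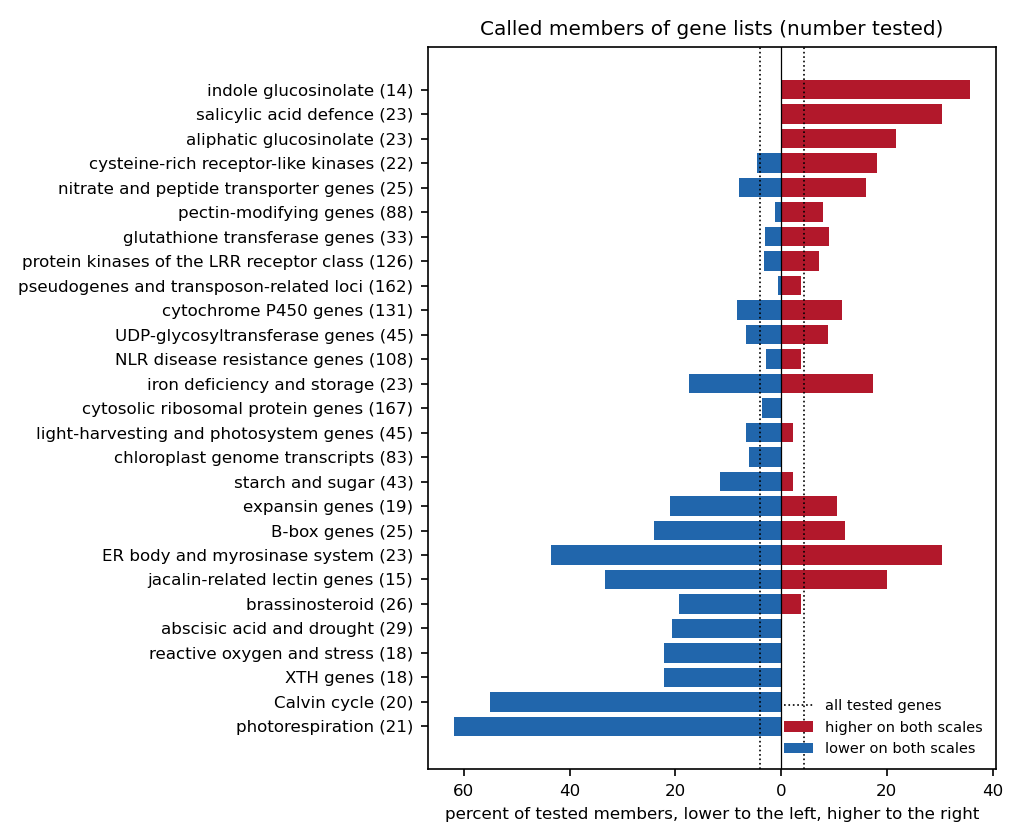
Bars give, for lists with at least 14 tested and 4 called members, the percent of tested members that rose (red, right) and fell (blue, left) on both scales, and dotted lines the 4.37% and 3.95% over all tested genes. The bar of photorespiration (61.9% lower), a list drawn up after its values were seen, is a description only. Calvin cycle genes are at 55.0% lower and indole glucosinolate genes at 35.7% higher. The ER body and jacalin lists, which share members, reach out on both sides.

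Levels in SOB3-D and pif4 pif5 pif7 were set beside those of sob3-6 for the main genes. These comparisons share the Col-0 libraries, so no count of shared changes is given. The mean level of PYK10 (± SD, n = 3 each) was 308 ± 39.3 ppm in Col-0, 62.3 ± 6.31 ppm in sob3-6, 1327 ± 101 ppm in SOB3-D (log2 change 2.11, limma adjusted p = 4.2e-07 against Col-0) and 303 ± 22.5 ppm in pif4 pif5 pif7 (log2 change -0.02, limma adjusted p = 0.95). AAO2 was at 48.9 ± 1.16, 22.5 ± 0.8, 111 ± 1.66 (log2 change 1.16, limma adjusted p = 4.5e-16) and 50.9 ± 1.21 ppm (log2 change 0.06, limma adjusted p = 0.62) in the same order. ACD6 was at 10.6 ± 1.35, 44.9 ± 15.0, 1.40 ± 0.322 (log2 change -2.28, limma adjusted p = 2.6e-05) and 7.03 ± 0.93 ppm (log2 change -0.54, limma adjusted p = 0.22). These genes were on opposite sides of Col-0 in the AHL lines. HMA2 was at 20.6 ± 1.15, 43.5 ± 1.69, 14.4 ± 1.05 (log2 change -0.49, limma adjusted p = 1.4e-05) and 16.3 ± 1.09 ppm (log2 change -0.32, limma adjusted p = 0.01).

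Some other genes did not lie on opposite sides of Col-0. CYP79B3 was at 36.0 ± 3.46, 52.4 ± 2.96, 96.0 ± 6.23 (log2 change 1.39, limma adjusted p = 1.1e-13) and 37.3 ± 3.55 ppm (log2 change 0.05, limma adjusted p = 0.75), above Col-0 in both AHL lines. GOX1 was at 1658 ± 56.8, 1191 ± 101, 1508 ± 58.8 (log2 change -0.14, limma adjusted p = 0.04) and 1914 ± 62.7 ppm (log2 change 0.21, limma adjusted p = 0.0098). The mean of GOX1 in SOB3-D was below Col-0, a difference that was not called after scaling (limma adjusted p = 0.0985). SIP3 was at 410.1 ± 6.88, 675 ± 22.2, 442 ± 5.12 (log2 change 0.11, limma adjusted p = 0.049) and 329 ± 6.78 ppm (log2 change -0.32, limma adjusted p = 5.2e-06). GRF6 was at 214 ± 5.47 and 297 ± 2.59 ppm in Col-0 and sob3-6, and at 211 ± 9.07 (log2 change -0.02, limma adjusted p = 0.78) and 214 ± 3.78 ppm (log2 change -0.00, limma adjusted p = 0.98) in the others. GRF6 was called in sob3-6 and in neither of the others, and the difference between the lines was not tested.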

How the data were processed

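Total RNA of shoots was, per the labels' protocols, prepared for sequencing with a kit for stranded mRNA libraries and processed with bcl2fastq and Bowtie 1.2.1 against TAIR10, per the submitters' processing notes. The sources used here do not state if reads were counted by strand. The deposited signal of a transcript is in reads per 1000000 mapped reads (ppm), as the authors made it. It sums to between 1599900 and 1626180 per library, as if a read counted in each transcript it matched. All values (100%) were whole multiples of 1 read within 0.01 reads, which gave the library sizes and the whole reads used with edgeR.

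The 32950 transcripts of 12 libraries were reduced to the 25710 with at least 1 ppm in at least 3 libraries, and log2(ppm + 1) was fitted with limma 3.58.1 in R 4.3.3, with a mean-variance trend, robust empirical Bayes and 4 groups (8 residual degrees of freedom). Robust moderation lets genes of equal change and standard error differ in p. P-values were Benjamini-Hochberg adjusted over all kept transcripts, and a gene was read through its transcript with the highest mean over the 12 libraries. Of 25089 genes 24747 were found in the RefSeq TAIR10.1 annotation, the source of names and positions. The same fit was run after median-of-ratios scaling, with factors of 0.994 to 1.01 in Col-0 and 1.04 to 1.05 in sob3-6. Alternatives were edgeR 4.0.16, quantile normalization, other pseudocounts and filters, the 6 libraries alone, a replicate block, 1 transcript per locus and leaving out each library. The fit was tested on simulated data.

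Genes were named by rule, 4 per size band and direction with the lowest p, and 3 per list with at least 2 called members, 146 in all. Members shown beside them are from the same lists. The members and the 63 lists were chosen with earlier results of these data known, and 1 list, photorespiration, was added after its values were seen.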

Additional observations from a re-analysis of the deposited data

How the results depend on the processing

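The number of genes called higher in sob3-6, 1745 by limma as deposited, was 809 after median-of-ratios scaling, 896 after quantile normalization and 1018 with edgeR on whole reads. It ranged from 976 to 1335 when 1 library was left out. The number called lower, 730, was 1253 after median-of-ratios scaling and 1366 with edgeR, and 507 to 607 with 1 library left out. The share of higher genes among all calls was 46.5% after quantile normalization and 42.7% with edgeR. On both scales together, 809 higher and 730 lower calls became 449 to 576 and 507 to 606 with 1 library left out. With 2 in place of 3 libraries in a genotype, fewer calls follow in part from the smaller sample. The other alternatives kept each count within 1.5 times its value. SOB3 remained called throughout, with a log2 change that went up to 10.41 with edgeR and 9.25 with a pseudocount of 0.25, since Col-0 is near 0. No gene named by the rule changed direction under any alternative. Of 145 of them with a value, 145 remained called with edgeR and 139 after quantile normalization. Their calls after median-of-ratios scaling were set by the choice of these genes and test nothing. As deposited, 138 remained called without a filter and 144 with the 6 libraries alone. Without 1 library, 14 to 16 lost the call as deposited, of 145 without a Col-0 library and 142 without a sob3-6 library. Genes that passed the filter only through sob3-6 were not tested in the latter. Losses on both scales were not counted for the named genes and can be more. The indole glucosinolate genes called higher on both scales, for example, went from 5 to 1 without Col-0 replicate 3.

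Replicate numbers were shared by label only. Deviations of same-numbered Col-0 and sob3-6 libraries from their group means correlated at 0.0268, -0.00638 and 0.126 for replicates 1, 2 and 3, and not every library correlated best with its own number. With a replicate block, 2019 genes were higher and 904 lower as deposited, and 981 and 904 on both scales. Levels under about 0.3 ppm lie within 3 reads of 0 in the shallowest of these libraries, so differences among such genes were not detectable at this depth.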

Other observations

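Some genes of large enzyme families also changed in sob3-6. Of 131 tested cytochrome P450 genes 15 rose and 11 fell, beside 4.37% and 3.95% of all tested genes, and the 15 were 9 without Col-0 replicate 2 or sob3-6 replicate 2 and 8 without Col-0 replicate 3. The 15 include 4 glucosinolate genes, CYP79B2, CYP79B3, CYP83B1 and CYP79F1. CYP71B2 was at 50.1, 52.5 and 44.7 ppm in Col-0 and 67.5, 65.7 and 65.2 ppm in sob3-6 (log2 change 0.43, SE 0.06, limma adjusted p = 7.2e-06). CYP71B11 was at 22.3, 21.4 and 19.0 ppm and 12.4, 13.0 and 11.9 ppm (log2 change -0.70, SE 0.08, limma adjusted p = 3.3e-07). These members of a single subfamily lay on opposite sides of Col-0 with no overlap. Of 45 UDP-glycosyltransferase genes 4 rose and 3 fell. The flavonol rhamnosyltransferase UGT78D1 was at 67.6, 65.4 and 60.5 ppm and 91.6, 81.3 and 83.9 ppm (log2 change 0.40, SE 0.07, limma adjusted p = 0.00062), and flavonol synthase FLS1, which acts before it, at 16.6, 15.8 and 13.5 ppm and 11.3, 11.7 and 9.87 ppm (log2 change -0.44, SE 0.11, limma adjusted p = 0.0049). The enzyme of flavonol synthesis was lower and that of flavonol glycosylation higher in every sob3-6 library.

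Membrane lipid and water channel genes gave further values. SQD2, which makes the sulfolipid of plastid membranes and is known for induction by phosphate starvation, was at 68.3, 69.4 and 65.7 ppm in Col-0 and 83.8, 86.8 and 84.8 ppm in sob3-6 (log2 change 0.32, SE 0.06, limma adjusted p = 0.0002). Among aquaporins, the plasma membrane channel PIP1;5 was at 107, 108 and 115 ppm and 132, 136 and 142 ppm (log2 change 0.31, SE 0.05, limma adjusted p = 0.00023), while the vacuolar channel TIP2;2 was at 83.9, 88.6 and 86.8 ppm and 73.7, 62.4 and 65.5 ppm (log2 change -0.36, SE 0.07, limma adjusted p = 0.0011). PIP1;5 was higher and TIP2;2 lower in all sob3-6 libraries.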
